A study of Mus musculus with 2 samples.

Results

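Semaphorins, plexins and neuropilins form one of the main guidance systems of the nervous system, and their genes were examined here for H3K4me3. This histone mark, 3 methyl groups on lysine 4 of histone H3, is found around the starts of genes that are transcribed or held ready for it. The family was taken as the protein-coding genes of the RefSeq mouse annotation with the symbols of semaphorins 3 to 7, plexins A to D and neuropilins 1 and 2. This gave 31 of 21883 protein-coding genes on the assembled chromosomes, made up of 20 semaphorin, 9 plexin and 2 neuropilin genes. The mark was mapped by chromatin immunoprecipitation and sequencing in adult mouse neural progenitor cells, cultured in N2 medium to which EGF and bFGF were added, with no treatment. The study comprises 1 H3K4me3 library and 1 input library of chromatin from the same kind of cells. The labels mark the H3K4me3 library "con" and the file header names it after EGF, and what "con" stands for is not given. Both libraries come from cells in this medium, and the labels used here name no strain or genotype and no age beyond "adult". With 1 library of each kind, no value has an error between cultures.

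Semaphorins are ligands that share a sema domain. Class 3 members are secreted, classes 4, 5 and 6 span the membrane, and class 7 is held to the membrane by a lipid anchor. Plexins are the receptors, which also carry a sema domain outside the cell and a GTPase-activating domain inside it. Neuropilins bind class 3 semaphorins and pair with A-type plexins, since they have only a short tail inside the cell. In the nervous system these proteins are best known for steering axons and migrating neurons, and H3K4me3 at their genes says that a start is marked, not that the protein is made.

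The labelled cell type was set beside marker genes. Their lists were chosen with earlier results of these data known, so the counts are no independent check of the label. All 10 neural progenitor markers, Sox2, Nes and Egfr among them, carried a peak, with fold enrichments over the input of 20.3 to 54.97. Over all protein-coding genes the share with a peak was 61.5%. For other cell types the counts were 3 of 6 for neurons, 1 of 5 for astrocytes, 1 of 5 for oligodendrocytes, 2 of 6 for microglia and 3 of 6 for endothelial and mural cells. The neuronal and the endothelial and mural counts, at 50% each, were near the share of all coding genes. The neuronal genes with a peak were Syt1 (22.6-fold), Snap25 (16.6-fold) and Tubb3 (13.0-fold). The astrocyte gene Slc1a2 had 38.6-fold with 339 tags, the oligodendrocyte gene Mbp 10.85-fold, and the microglial genes Spi1 and P2ry12 26.8-fold and 10.85-fold. The mark at P2ry12 was shared with another coding gene and cannot be assigned to P2ry12 alone. Pecam1, Kdr and Kcnj8, for endothelial and mural cells, had 8.68 to 14.5-fold. Rbfox3, Dcx, Gfap, Aqp4, Sox10, Mog, Aif1, Itgam and Cdh5 were among the genes of these lists with no called peak. In these bulk cells, a small share of cells with a mark and a weak mark in all cells cannot be told apart. The filtered libraries had 18156769 H3K4me3 tags and 17831241 input tags. The fewest tags in any of the 19265 listed peaks were 13, and in what follows a gene without a peak is one where none was called at that depth.

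The sequences in front of the listed starts are shown first, since marked and unmarked starts of the family differed in their CpG content. RefSeq promoter sequences on GRCm38.p6, the assembly that mm10 names, matched 26 of the 31 genes and gave 37 starts. The table lists none for Plxna1, Plxna4, Sema3b, Sema3f and Sema6a. The 200 bases before a start are written 5′ to 3′, on the strand of the gene, with each CpG dinucleotide in capitals. The first 3 belong to starts inside a peak, at Nrp2 (chr1:62703117-62703316, plus strand), Sema3c (chr5:17574616-17574815, plus strand) and Sema3e (chr5:14025076-14025275, plus strand). All 3 stretches lie just outside the annotated gene.
Nrp2: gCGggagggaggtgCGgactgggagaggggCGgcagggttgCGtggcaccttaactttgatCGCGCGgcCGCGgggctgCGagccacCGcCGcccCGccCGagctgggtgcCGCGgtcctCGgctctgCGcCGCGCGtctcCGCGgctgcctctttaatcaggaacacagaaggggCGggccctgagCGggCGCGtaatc
Sema3c: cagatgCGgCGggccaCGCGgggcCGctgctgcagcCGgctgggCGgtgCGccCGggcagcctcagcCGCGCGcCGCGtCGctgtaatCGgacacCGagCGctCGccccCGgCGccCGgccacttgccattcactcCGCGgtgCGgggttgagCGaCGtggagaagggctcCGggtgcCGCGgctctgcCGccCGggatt
Sema3e: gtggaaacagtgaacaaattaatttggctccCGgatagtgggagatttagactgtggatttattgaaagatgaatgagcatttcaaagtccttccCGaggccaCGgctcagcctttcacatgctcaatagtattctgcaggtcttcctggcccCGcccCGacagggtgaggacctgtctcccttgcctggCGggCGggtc
The stretches at Nrp2 and Sema3c held 27 and 32 CpG and that at Sema3e 7, and their peaks had fold enrichments of 36.2, 42.0 and 24.6. The next 3 belong to starts with no peak within 1 kb, at Sema3a (chr5:13396584-13396783, plus strand, inside the gene), Sema3g (chr14:31217673-31217872, plus strand, outside the gene) and Sema4f (chr6:82939770-82939969, minus strand, outside the gene).
Sema3a: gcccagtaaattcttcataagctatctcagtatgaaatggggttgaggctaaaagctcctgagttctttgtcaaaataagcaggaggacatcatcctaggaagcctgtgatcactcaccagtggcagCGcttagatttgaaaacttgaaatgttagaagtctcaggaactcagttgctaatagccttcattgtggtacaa
Sema3g: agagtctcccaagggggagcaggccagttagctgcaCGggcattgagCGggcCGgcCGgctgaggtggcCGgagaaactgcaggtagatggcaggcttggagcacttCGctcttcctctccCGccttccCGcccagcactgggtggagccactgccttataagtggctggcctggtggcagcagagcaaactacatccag
Sema4f: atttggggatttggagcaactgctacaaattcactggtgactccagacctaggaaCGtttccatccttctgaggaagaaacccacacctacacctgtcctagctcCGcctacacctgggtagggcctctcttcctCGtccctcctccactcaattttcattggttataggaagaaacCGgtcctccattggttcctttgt
They held 1, 8 and 4 CpG. The last 4 compare starts of the same gene, where start 1 lay inside a peak and start 2 had none within 1 kb. They are Sema6c start 1 (chr3:95160220-95160419, outside the gene) and start 2 (chr3:95164139-95164338, inside the gene), and Sema6d start 1 (chr2:124089769-124089968, with its last 26 bases inside the gene) and start 2 (chr2:124653381-124653580, inside the gene), all on the plus strand.
Sema6c start 1: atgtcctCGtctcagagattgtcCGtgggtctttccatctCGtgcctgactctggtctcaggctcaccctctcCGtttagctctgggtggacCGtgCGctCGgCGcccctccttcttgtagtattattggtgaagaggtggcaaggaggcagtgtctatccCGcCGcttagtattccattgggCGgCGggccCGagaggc
Sema6c start 2: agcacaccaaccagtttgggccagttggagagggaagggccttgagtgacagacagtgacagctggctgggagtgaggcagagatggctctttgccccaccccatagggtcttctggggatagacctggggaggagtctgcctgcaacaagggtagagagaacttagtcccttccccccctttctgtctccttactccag
Sema6d start 1: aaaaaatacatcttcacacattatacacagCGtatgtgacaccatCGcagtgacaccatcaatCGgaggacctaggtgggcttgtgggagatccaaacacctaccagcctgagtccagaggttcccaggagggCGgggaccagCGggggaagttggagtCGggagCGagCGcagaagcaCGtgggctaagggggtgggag
Sema6d start 2: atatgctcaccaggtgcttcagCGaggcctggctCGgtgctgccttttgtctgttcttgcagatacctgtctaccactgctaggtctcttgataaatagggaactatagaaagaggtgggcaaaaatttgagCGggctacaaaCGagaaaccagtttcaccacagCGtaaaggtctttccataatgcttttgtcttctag
Sema6c start 1 had 13 CpG and start 2 had 0, and Sema6d start 1 had 9 and start 2 had 5. The stretches of Sema3g, Sema6c start 2 and both Sema6d starts end in AG. Of the unmarked listed starts of the family 3 of 13 (23.1%) directly followed AG, and of the marked 1 of 24 (4.17%). Over all coding starts these shares were 7.49% and 4.26%. Whether the listed positions are true starts of transcription in these cells was not tested.

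A peak was counted for a gene when it overlapped the gene plus 1 kb on either side by at least 1 bp. On this count 27 of the 31 genes were marked, which is 87.1% (exact 95% binomial interval 70.2 to 96.4, over genes and for counting error only), and 61.5% of all protein-coding genes were. The 4 genes without a peak were Sema3b, Sema3g, Sema4f and Plxnb3. A peak within 1 kb of an end of the gene lay at 25 of the 31, and at 56.3% of all coding genes. The 2 genes marked inside but at neither end were Sema3a and Sema4c, a class that held 5.18% of all coding genes. Members are long genes, with a median of 40.5 kb against 17.2 kb for all coding genes, and longer genes were marked more often. All 14 members over 100 kb had a peak, as did 82.5% of all coding genes of that length. Of the 9 members between 20 and 100 kb 8 had one, beside 74.5% of coding genes, and of the 8 members under 20 kb 5 had one, beside 48.9%. The count of 27 was the same with a -log10 p of at least 10 (60.2% of all coding genes), at least 10-fold (59.2%) and the summit inside the window (60.6%). It was also the same with an overlap of at least 500 bp (61%) and with no flank (60.8%). A false discovery rate of at most 1% (61.5%) could not change the count, as no listed peak exceeded 0.32%. Applying the shares of all coding genes in the length classes to the members' own lengths gives 22.2 marked genes of 31.

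**Figure D1:**
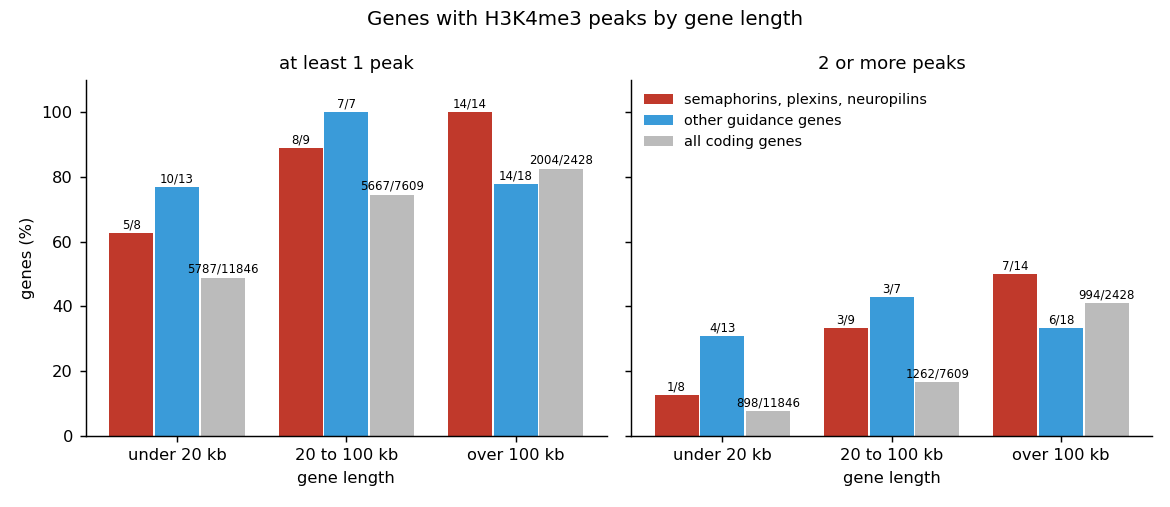
Share of genes (vertical axis, percent) with at least 1 peak (left) and with 2 or more peaks (right) over the gene plus 1 kb, by gene length, for semaphorins, plexins and neuropilins (red), other guidance genes (blue) and all coding genes (grey), with counts above the bars. The family's bars stand above the grey bars in each length class of both panels, with 14 of 14 genes over 100 kb marked.

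In peak height, most of the family lay within or below the quartile range of all marked coding genes, as most such genes do by definition. Fold enrichment is the authors' ratio of H3K4me3 to local input background, and the strongest peak of each marked member had a median of 36.2 with quartiles of 27.5 and 42.3. For all 13458 marked coding genes the median was 39.1 and the quartiles were 29.2 and 46.3. Of the 27 marked members 11 lay above the coding median, 4 above the upper quartile and 8 below the lower one. The strongest were Sema6d at 55.7, Sema4b at 48.5, Sema4c at 47.7 and Nrp1 at 46.8, and Plxna1 lay at the upper quartile itself, 46.29. The weakest were Plxna4 at 18.1 and Sema4a at 19.5, which are the 2 members without a peak of 20-fold or more. By the subfamilies, the medians of the strongest peak were 36.2 for class 3, 38.3 for class 4, 23.8 for class 5, 32.1 for class 6, 35.1 for A-type plexins, 41.5 for neuropilins and 36.5 for B-type plexins. The ranges of these groups overlapped, except that both class 5 values lay below every value of class 6, the neuropilins and the B-type plexins.

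**Figure D2:**
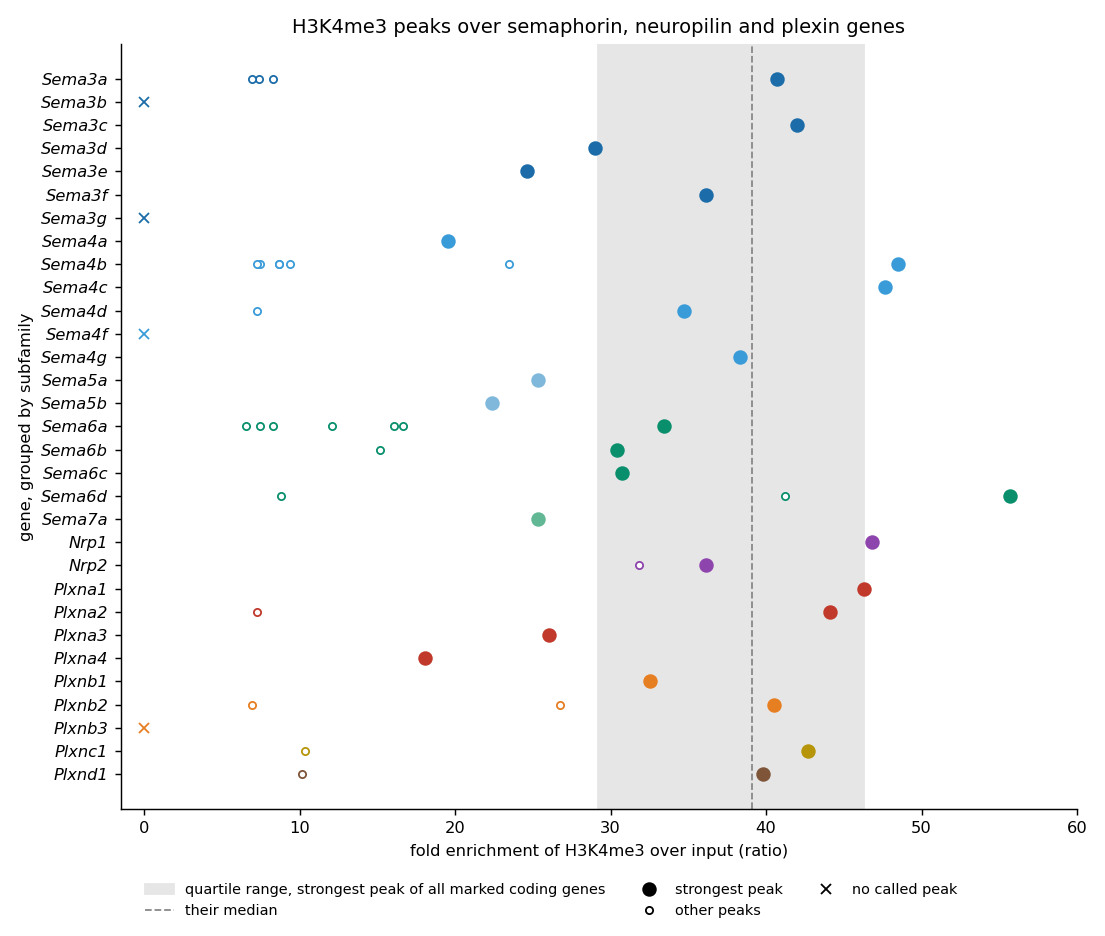
Fold enrichment over the input (horizontal axis, ratio) of each peak over each of the 31 genes, coloured by subfamily, with the strongest peak as a filled circle, other peaks as open circles and genes without a called peak as crosses at 0. The grey band is the quartile range of the strongest peak of all marked coding genes (29.2 to 46.3) and the dashed line their median of 39.1; most filled circles lie in or left of the band, and Sema6d stands farthest right at 55.7.

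Of the 7 genes for secreted class 3 ligands 5 had a peak, which is 71.4% (29.0 to 96.3) and near the 61.5% of all coding genes. Sema3c, whose product acts in neural crest and vessel development, had the highest fold of the class, with 460 tags over 2.94 kb and a fold enrichment of 42.0. Sema3f, a ligand that prefers neuropilin 2, had 329 tags over 2.24 kb (36.2-fold) at its higher-coordinate end. The peaks at Sema3d (139 tags over 1.70 kb) and Sema3e (171 tags over 1.76 kb), the latter encoding a ligand that binds plexin D1 without a neuropilin, were shorter and thinner. Per length, Sema3c held 157 tags per kb (exact 95% Poisson interval 143 to 172, counting error only), Sema3f 147 (132 to 164), Sema3e 97.2 (83.2 to 113) and Sema3d 81.8 (68.8 to 96.6). The intervals of Sema3c and Sema3f overlapped, those of Sema3e and Sema3d overlapped, and each of the first pair lay above each of the second.

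Sema3a, which encodes the best known repellent of axons, was marked away from its annotated ends. Its main peak lay on chromosome 5 at 13398420 to 13403256, 4.84 kb long with 655 tags and a fold enrichment of 40.7. It began 1.64 kb downstream of the 1 listed start, and its summit lay 3.51 kb from that start and 203 kb from the nearer end of the gene. The listed start itself had 2 CpG in its 300 bases and no peak within 1 kb. Sema3a also held 3 weak peaks farther into the gene, with folds of 8.28, 7.39 and 6.90. Sema3a, Sema3c, Sema3d and Sema3e all lie on chromosome 5, between 12383161 and 17730268, and all 4 were marked. Each is over 100 kb long, and 82.5% of all coding genes of that length had a peak.

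No peak was called at Sema3b or Sema3g. Sema3b and Sema3f lie close to each other on chromosome 9, at 107597674 to 107609241 and at 107681499 to 107710475, and only Sema3f carried the mark. The nearest peak to Sema3b lay 2.98 kb from the gene, with a fold enrichment of 14.5, and touched no coding gene. Sema3g had its nearest peak 10.4 kb away, at Nisch and Tnnc1 and with a fold enrichment of 50.6.

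Of the 6 transmembrane class 4 ligands 5 had a peak, in differing positions. This is 83.3% (35.9 to 99.6), an interval that holds the 61.5% of all coding genes. Sema4c, which encodes a ligand of plexin B2, lay under 1 peak of 3.49 kb with 733 tags, a fold enrichment of 47.7 and 210 tags per kb (195 to 226), the densest strongest peak of the family. That peak covered both listed starts of Sema4c, which are minus-strand starts at 36558381 and 36557557 on chromosome 1. Sema4g had 1 peak of 1.62 kb with its summit 58 bp from the start (259 tags, 38.3-fold, 160 tags per kb). Sema4f had no peak, and its nearest peak, a weak one of 7.55-fold, lay 2.09 kb from the gene. With a flank of 5 kb in place of 1 kb, Sema4f and Sema3b counted as marked and the share of all coding genes was 64.1%.

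Sema4b had the most peaks of the family together with Sema6a, 7 over a gene of 39.8 kb. Its first listed start lay in a peak of 1.82 kb with 219 tags and a fold enrichment of 23.45, and its second, 11.7 kb further on, in a peak of 4.81 kb with 611 tags and 48.5-fold. The other 5 peaks lay between them, with 28 to 65 tags each and folds of 7.23 to 9.40. The tags per kb at the first and second start, 120 (105 to 137) and 127 (117 to 138), overlapped, while the peaks between them had 37.9 to 47.5. Joined across gaps of up to 1 kb, the widest marked stretch of Sema4b was 10.2 kb, the widest of the family.

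Sema4d and Sema4a had no peak at any listed start. Sema4d, whose product binds plexin B1 and, on immune cells, CD72, had a short peak of 1.31 kb with 159 tags. Its fold enrichment was 34.7, below the median of 39.1 for the strongest peak of marked coding genes. The peak lay at the higher-coordinate end of the gene on chromosome 13, 173 bp from that end. As the gene is on the minus strand, this is its upstream end, and the 3 listed starts lie 20.1 kb or more from the nearest peak, a weak one of 33 tags (7.23-fold) inside the gene. Sema4a, on the minus strand of chromosome 3, has 4 listed starts at its higher-coordinate side. Its only peak (94 tags over 1.36 kb, 19.5-fold) lay at the other, downstream side, at 88436398 to 88437755, with 18.0 kb from the nearest listed start to the peak.

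The 2 genes of class 5, the 4 of class 6 and the 1 of class 7 each had a peak. Exact intervals for such small classes reach down to 15.8%, 39.8% and 2.5%, below the 61.5% of all coding genes. Sema5a and Sema5b, membrane ligands with thrombospondin repeats, each had 1 peak at the start, with 340 tags over 2.79 kb (25.3-fold) and 276 tags over 2.46 kb (22.4-fold). Their tags per kb were 122 (109 to 136) and 112 (99.4 to 126), which overlapped. The peak at Sema5a also touched the long non-coding RNA gene Snhg18. Sema7a, the anchored ligand of plexin C1 and of integrins, had 185 tags over 1.80 kb and a fold enrichment of 25.3. Sema6c had 1 peak of 2.05 kb with 247 tags (30.7-fold) at its first start and none within 1 kb of its second. Sema6b had 187 tags over 1.34 kb (30.4-fold) at its first start and a second peak of 85 tags (15.2-fold) whose nearer edge lay 123 bp upstream of its second.

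The largest deposits of the family lay over Sema6a and Sema6d, which encode transmembrane ligands of A-type plexins. Over Sema6d, a gene of 578 kb on chromosome 2, the first listed start had a peak of 2.13 kb with 334 tags (41.2-fold). A second and larger peak, 5.72 kb long with 1164 tags and a fold enrichment of 55.7, lay at 124608725 to 124614446, 521 kb downstream of the first start and 42.6 kb from the second. Per length it held 203 tags per kb (192 to 215), above the 157 (141 to 175) at the first start. Peaks inside coding genes and over 5 kb from every coding gene end and listed start numbered 2692 in the whole list, with a median fold of 9.09, and the Sema6d peak ranked 2 by tags, 2 by fold enrichment and 5 by length among them. The reference lists no start there, and what the peak marks was not tested. Another, weak peak (39 tags, 8.78-fold) lay 1.43 kb from the second start of Sema6d.

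Sema6a, on chromosome 18, had 7 peaks with 1639 tags in all. The main one, at 47364883 to 47371034, was 6.15 kb long, the longest single peak of the family, with 1194 tags, 33.4-fold and 194 tags per kb (183 to 205). It lay inside the gene, beside the higher-coordinate end. The remaining 6 lay across the gene, with 23 to 132 tags and folds of 6.57 to 16.6, and each was over 5 kb from every coding end and listed start.

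**Figure D3:**
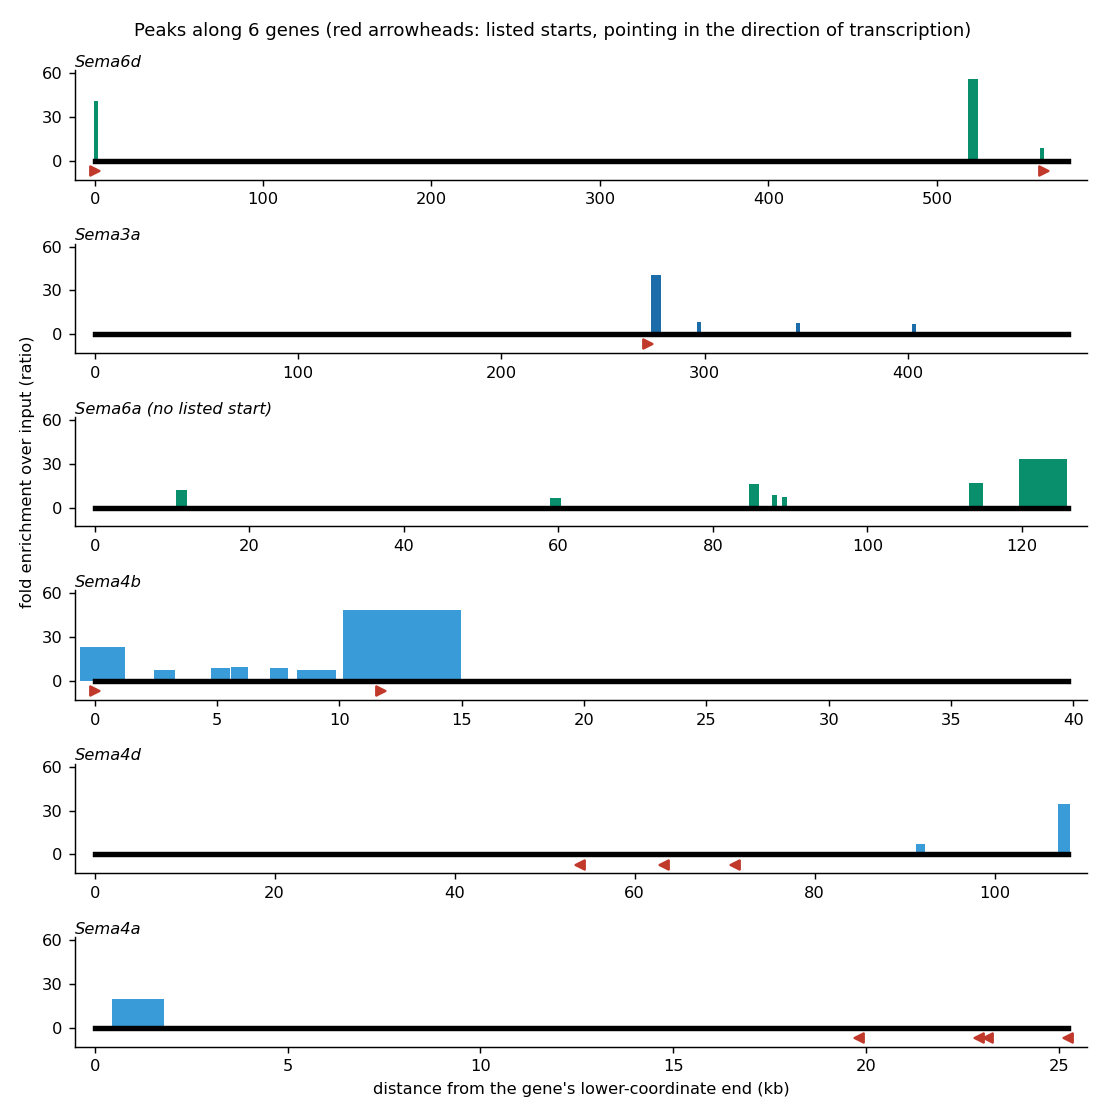
Peaks along 6 genes with unusual positions, with distance from the lower-coordinate end of the gene (horizontal axis, kb), fold enrichment over the input as bar height (ratio), the gene as a black line and listed starts as red arrowheads that point in the direction of transcription; narrow peaks are drawn wider than scale. Sema6d shows its tallest bar 521 kb into the gene, Sema3a its tallest just after the listed start, and Sema4a its only bar at the side away from the starts.

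Both neuropilin genes were marked. Nrp1, the co-receptor for Sema3A that also binds VEGF, had 842 tags over 4.59 kb on chromosome 8 (128356449 to 128361035), with a fold enrichment of 46.8 and 184 tags per kb (171 to 196). Nrp2, the co-receptor preferred by Sema3F, had a pair of peaks of like strength, 311 tags over 2.23 kb at the start (36.2-fold) and 368 tags over 2.69 kb with its summit 3.71 kb downstream (31.8-fold). Their tags per kb, 140 (125 to 156) and 137 (123 to 152), overlapped, and both lay below that of Nrp1. The window of the Nrp1 peak also held the long non-coding RNA gene A930035F09Rik and the microRNA gene Mir1903. Nrp1 was the only member whose peak reached more than 2 kb upstream of its listed start, with 2.62 kb upstream and 1.96 kb downstream.

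The A-type plexins, the signalling partners of neuropilins and the receptors of class 6 ligands, fell into a stronger and a weaker pair. Plxna1 had 395 tags over 2.13 kb (46.3-fold) and Plxna2 569 tags over 3.46 kb (44.1-fold). Plxna3 had 161 tags over 1.58 kb (26.04-fold) and Plxna4 136 tags over 1.47 kb (18.1-fold). Per length, Plxna1 held 186 tags per kb (168 to 205), Plxna2 164 (151 to 178), Plxna3 102 (86.5 to 119) and Plxna4 92.8 (77.8 to 110). The intervals, which cover counting error only, overlapped within each pair and not between the pairs. As the pairs were formed from these values, this is a description and not a test. Plxna2 also had a weak peak of 20 tags (7.23-fold), 127 kb into the gene. The peak of Plxna1 was shared with the predicted coding gene Gm40415, and without shared peaks Plxna1 had none, beside 46.4% of all coding genes with an unshared peak. Plxna3 lies on the X chromosome, and these cells' sex is not given in the labels. On X 43.3% of coding genes had a peak.

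Of the B-type plexins, which bind RhoA exchange factors, Plxnb1 and Plxnb2 were marked and Plxnb3 was not. Plxnb1, the receptor of Sema4D, had 380 tags over 2.75 kb (32.6-fold). Plxnb2, a receptor of class 4 ligands found in neural progenitors, had a peak at each of its listed starts, 458 tags over 3.31 kb (40.5-fold) at the first and 188 tags over 2.09 kb (26.8-fold) at the second, and a weak one of 26 tags between. The first was shared with Dennd6b. Plxnb1 and the first peak of Plxnb2 had 138 (125 to 153) and 139 (126 to 152) tags per kb. Plxnb3, on X, had its nearest peak 12.7 kb from the gene, at Idh3g and Ssr4. Its listed start had a ratio of observed to expected CpG of 0.13.

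Plxnc1, the receptor of Sema7A, and Plxnd1, the receptor of Sema3E, each had a strong peak at the start and a weaker one inside. Plxnc1 had 423 tags over 2.40 kb (42.7-fold) and, 115 kb downstream, 84 tags (10.3-fold). Plxnd1 had 324 tags over 2.42 kb (39.8-fold) and, 3.02 kb downstream, 45 tags (10.1-fold). Set beside their ligands, Plxnc1 held 176 tags per kb (160 to 194) and Sema7a 103 (88.4 to 119), while Plxnd1 held 134 (120 to 149) and Sema3e 97.2 (83.2 to 113). In both pairs the interval of the receptor gene lay above that of the ligand gene. For Plxnb1 and Sema4d, at 138 (125 to 153) and 122 (104 to 142), the intervals overlapped. Plxnb2 and its ligand gene Sema4c went the other way. The peak at the first start of Plxnb2 held 139 (126 to 152), below the 210 (195 to 226) of Sema4c. Receptor genes thus did not lie above ligand genes in every pair, and no difference between them was tested.

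Peaks at listed starts were mostly offset into the gene. Among the members 23 summits lay within 1 kb of a listed start, 20 of them downstream of the nearest start and 3 upstream of it (Nrp2, Sema4c and the second start of Sema6b), with a median of 310 bp downstream. The summit of Sema4c lay 0.390 kb upstream of its second start, the nearest, and 0.434 kb downstream of its first. Over all coding starts with such a summit, 78.7% were downstream and the median was 200 bp. For the 23 listed starts inside a peak, the peak reached a median of 0.773 kb upstream and 1.68 kb downstream, and 0.829 and 1.30 kb over all coding starts inside a peak. It reached further downstream than upstream at 20 of the 23, the exceptions being Nrp1, Sema5b and Sema6c. The share over all coding starts was 76.6%.

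**Figure D4:**
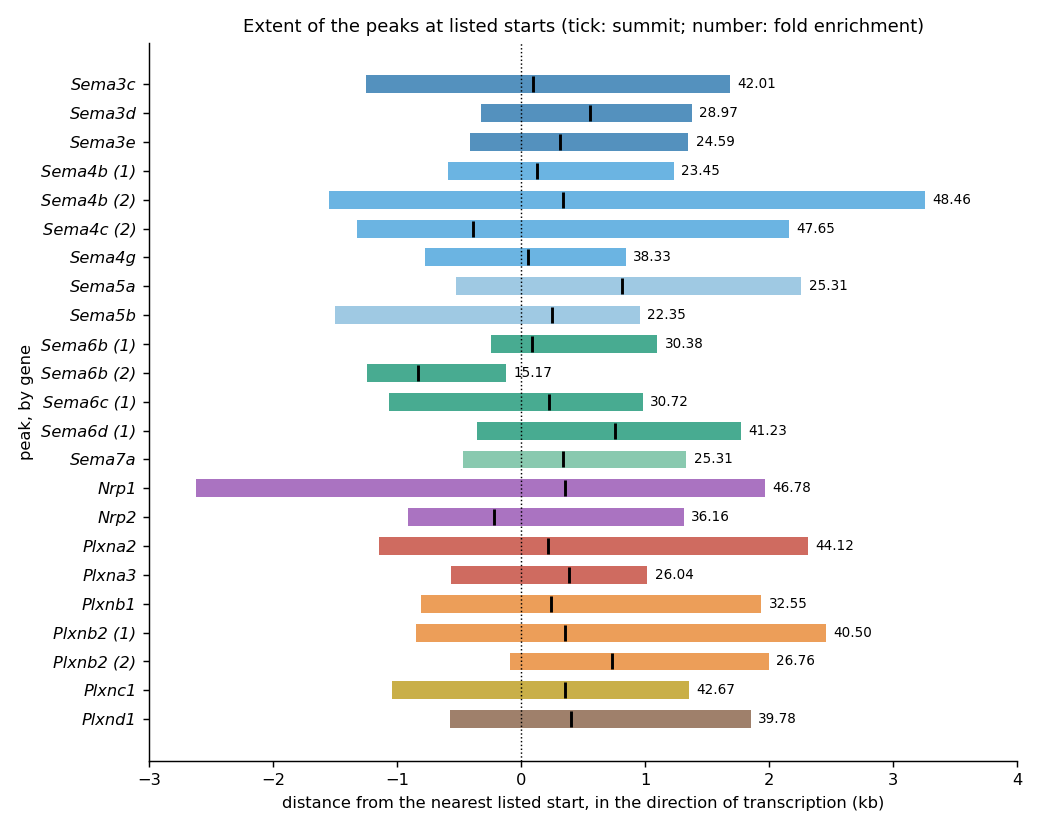
Extent of each peak within 1 kb of a listed start, as distance from the nearest listed start in the direction of transcription (horizontal axis, kb), with the summit as a black tick and the fold enrichment as a number; numbers in brackets count the listed starts of a gene from its upstream side. Most bars reach further to the right of the start than to the left, and Nrp1 reaches 2.62 kb to the left.

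Several members had more than 1 peak or an unusually long one. In all, the 31 genes held 52 peaks, of which 25 lay at a gene end, with a median fold of 33.4 and a median length of 2.13 kb. The other 27 had medians of 8.78-fold and 1.08 kb. Only 6 of these 27 reached 20-fold, and they lay at Nrp2, at the second starts of Plxnb2 and Sema4b, and at Sema3a, Sema4c and Sema6d. At least 2 peaks were found over 11 of the 31 genes, beside 14.4% of all coding genes, and at least 3 over 5 of them (Plxnb2, Sema3a, Sema4b, Sema6a and Sema6d), beside 4.04%. Applying the coding shares to the members' lengths gives 7.83 genes with at least 2 and 3.20 with at least 3. The longest peak exceeded 4.34 kb, the bound passed by 5% of marked coding genes, in 5 of the 27 marked members, namely Sema6a, Sema6d, Sema3a, Sema4b and Nrp1. Of these 5 genes 4 are over 100 kb long, and among marked coding genes of that length 8.53% passed the bound. The lengths of the members give 1.75 genes from the coding shares.

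The CpG content of the listed starts went with the mark. The ratio of observed to expected CpG was taken over the 300 bases from 250 before to 50 after each start. Of the 37 listed starts of the family 24 had a peak within 1 kb, beside 57.3% of all 21262 listed coding starts. The marked starts had a median ratio of 0.73 (range 0.25 to 0.99) and the 13 unmarked ones 0.16 (range 0.10 to 0.53), and over all coding starts the medians were 0.78 and 0.21. All 18 starts of the family with a ratio of at least 0.6 were marked, from Sema4c start 1 at 0.63 up to Nrp2 at 0.99, and none of the 8 below 0.2 was. Among all coding starts the marked share went from 6.16% below 0.2 to 87.0% between 0.6 and 0.8 and 95.7% at 0.8 and over. Applied to the CpG classes of the family, these shares give 21.7 marked starts. Between these classes, the third start of Sema4a was unmarked at 0.53, while Nrp1 was marked at 0.47 with 46.8-fold and the second start of Sema6b at 0.25 with 15.2-fold.

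**Figure D5:**
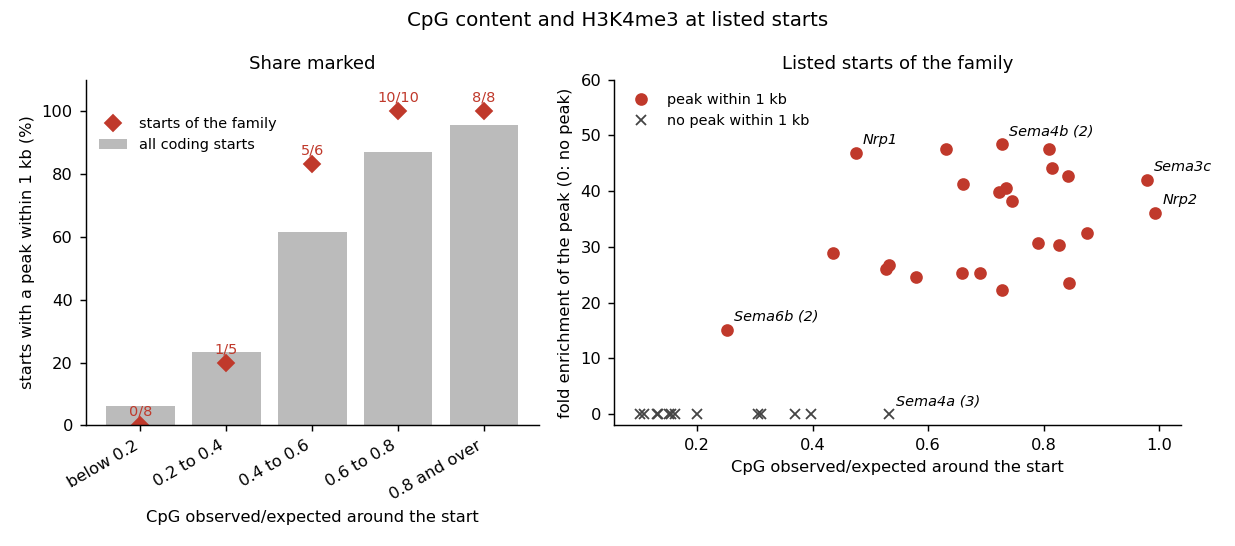
Left, share of listed starts with a peak within 1 kb (vertical axis, percent) by class of observed to expected CpG, for all coding starts (grey bars) and for the family (red diamonds, with counts); right, fold enrichment of the peak (ratio, 0 where there is none) against that CpG ratio for the 37 listed starts of the family. Starts with a ratio of 0.6 or more are all marked in the family, and the 8 below 0.2 are all unmarked.

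Short motifs were searched on both strands in the same 300 bases. GGGCGG, the GC box, was in 22 of the 24 marked and 5 of the 13 unmarked starts of the family (73.0% of the 37), and in 46.2% of all coding starts. CCAAT was in 3 marked and 4 unmarked starts (18.9%), and in 38.2% of all coding starts. TATAAA was in 0 of 37, and in 12.6% of all coding starts. CCGGAA, a core of ETS factor motifs, was in 4 of 37 (10.8%), and in 18.7% of all. GGGCGG and CCGGAA each hold a CpG, so their counts move with the CpG content, and a match is a run of letters and not a bound site.

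Genes through which semaphorins, plexins and neuropilins act were taken from a list drawn up with the family. Of 50 signalling partners 44 had a peak (88.0%), beside 61.5% of all coding genes. All 16 genes for small GTPases and their regulators were marked, with a median fold of 44.8, the highest at Arhgef12 (54.3-fold), which encodes a RhoA exchange factor bound by B-type plexins, and Rras (53.2-fold), a GTPase that plexins inactivate. Every peak of Rras, and of Rhoa, Ptk7, Cfl1 and Cdk5 in these lists, was shared with another coding gene and cannot be assigned to these genes alone. With unshared peaks only, 39 of the 50 partners were marked, beside 46.4% of all coding genes. Of 19 cytoskeletal effectors 18 were marked, led by the kinase genes Gsk3b (61.5-fold) and Pak1 (52.1-fold), and the exception was the kinase gene Fes. The 4 measured Dpysl genes and Crmp1, whose products relay Sema3A signals to microtubules, had folds of 24.6 to 42.6. Of 15 co-receptors and other semaphorin receptors 10 were marked (66.7%), near the share of all coding genes. The highest were Nrcam (53.5-fold), an adhesion molecule in neuropilin complexes, and the integrin gene Itga1 (49.9-fold). Mst1r and Cntn2 were the first listed without a peak, and Timd2, Trem2 and Tyrobp, which act in immune cells, had none either. Cd72, also of immune cells, had a weak peak of 28 tags (7.96-fold). Kdr, the VEGF receptor that pairs with neuropilin 1 and also an endothelial marker, had a weak peak of 13.3-fold.

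The nearest comparison is with the other guidance families, the ephrins, Eph receptors, slits, robos, netrins and netrin receptors. Of these 38 genes 31 had a peak, which is 81.6% (65.7 to 92.3), beside 61.5% of all coding genes and 26.4 genes from the coding shares at their own lengths. The interval overlapped that of the 31 semaphorin, plexin and neuropilin genes. Their strongest peaks had a median fold of 33.8 with quartiles of 17.0 and 42.0, beside 36.2 with 27.5 and 42.3 here. With peaks of at least 20-fold only, 25 of the 31 semaphorin, plexin and neuropilin genes and 22 of the 38 others counted as marked, beside 53.6% of all coding genes. This comparison was made after the values were seen and was not tested.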

How the data were processed

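The data are 1 H3K4me3 library and 1 input library of mouse neural progenitor cells. The authors deposited a peak list. Per the file headers, MACS 1.4.2 compared the H3K4me3 library with the input. It kept peaks below a p of 1e-05 and at most 1 tag per position, which limits counts in the strongest peaks. The submitters' processing notes name mm10 and, in place of MACS 1.4.2, MACS2 2.1.0. Which aligner was used was not given in the sources used here. In the deposited file the tags are raw counts per peak, fold enrichment is a ratio to the local input background, the score is -log10 of the p-value multiplied by 10, and the false discovery rate is in percent (at most 0.32). The score reached 3100 in 11 peaks of the family and was used only as a threshold. All these are the authors' values per peak.

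Peaks were joined to the RefSeq gene table of GRCm38.p6 with Python 3.11.15 and pandas 2.3.3, and 19261 of 19265 peaks lay on the assembled chromosomes. The overlap code was tested on simulated peaks. The gene table gives no exons, so exon or intron positions are not stated. Per-length values are tags divided by peak length, with exact Poisson intervals; shares of genes have exact Clopper-Pearson intervals. At most 1 tag per position was kept, which drops copies of 1 molecule at a position. With no molecular identifiers, separate molecules at the same position are dropped as well. These intervals cover counting error only. No test was run, as there are no replicates. Every gene of the family is named; of the signalling lists, the 2 with the highest fold and the first 2 without a peak, and others were named after their values were seen. The members and lists were chosen with earlier results of these data known.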

Additional observations from a re-analysis of the deposited data

How the results depend on the processing

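The count of 27 marked genes of 31 did not change under the settings named beside it in the text, of which the false discovery rate could not change it. It was 29 with a flank of 5 kb, 26 with peaks that touch no other coding gene, 25 within 1 kb of either end, and 25 at 20-fold or more, the last chosen after seeing the data. Within 1 kb of a listed start, 20 of the 26 genes with one were marked, beside 58% of coding genes. Over the same settings the other guidance genes ranged from 22 to 32 of 38 and the signalling partners from 39 to 45 of 50; of the partners with a listed start 31 of 36 were marked, and of the other guidance genes 28 of 33. The number of members with a peak at an end was 24 with windows of 500 bp and 27 with 2500 bp. For all coding genes only the share at 1 kb, 56.3%, is given here. Whether the change in the members only follows the window cannot be told from these counts. The median fold was 34.7 when the strongest peak was taken by tags, and the median longest peak 2.46 kb after joining peaks up to 1 kb apart. The median CpG ratio of marked starts was 0.67 over the 250 bases before the start alone. All counts stayed within 1.5 times the values given above. No paired analysis was possible because there is 1 library of each kind. Depth limits what is called: the weakest listed peak held 13 tags, and starts missing from the reference are not seen.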
